A study of Mus musculus with 12 samples.

Results

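The genes described here are 40 interferon-stimulated genes, transcripts that cells make more of after an interferon signal, measured in mouse urothelium with and without Stag2. They were taken as a list of symbols, and all 40 are among the 23337 genes of both deposited count tables. By role they are 11 type I effectors (the Ifit, Oas and Mx families), 7 GTPases typical of interferon gamma (the Gbp and Irg families), 4 sensors of nucleic acids, 3 transcription factors, 2 genes of the Isg15 system and 13 other antiviral genes. The tissue was peeled urothelium, the epithelium that lines the urinary tract, stripped from the layers below it. There were 4 groups of 3 libraries: Stag2-WT and Stag2-KO mice at 1 week, and the same genotypes at 1 month, counted from the start of a diet with TMX, the agent that the labels name for the induction. The controls ate the TMX diet too, which lasted for the first week. Stag2 codes for one of the cohesin subunits, and cohesin is a ring that shapes chromatin loops and holds sister chromatids. The allele, the driver of the deletion, the strain, the age and the sex of the animals are not given in the sources used here. Each library carries its own identifier in the labels, read here as 1 animal, except that the title and the library name of WT replicate 3 at 1 month carry different animal numbers under the same genotype. P-values measure the spread between these libraries.

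Interferons are secreted proteins that warn cells of infection. Type I interferons act through the receptor of Ifnar1 and Ifnar2, after which a complex with Stat2 and Irf9 binds the interferon-stimulated response element (ISRE) in front of genes such as Ifit1. Interferon gamma acts through Ifngr1 and Ifngr2, which leads to binding at the gamma-activated site (GAS) in front of genes such as the Gbp GTPases. Most of the genes answer both signals to some degree, so the families are a leaning and not a strict division. In the bladder these genes are part of the defence of the lining and of the macrophages beneath it.

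Promoter windows of 300 bases, from 250 before to 50 after the annotated start, were matched by symbol for 29 of the 40 members in a RefSeq table of the mouse build GRCm38.p6. Not matched were Oas2, Mx1, Mx2, Iigp1, Dhx58, Zbp1, Usp18, Rtp4, Ifi27l2a, Parp9 and Parp14. The ISRE core, searched as GAAANNGAAA and its reverse complement TTTCNNTTTC, was found in 18 of the 29 (62.1%), against 3.99% of 27025 genes with a window. GAS, searched as TTCNNNGAA, which is its own reverse complement, was found in 8 of the 29 (27.6%), against 9.55% of all. ISRE cores may overlap each other. Both motifs crossed the division between the families: the ISRE core was in 5 of 8 windows of type I effectors and in 6 of 6 of GTPases, and GAS was in 2 of 8 and in 3 of 6. A match is a run of letters and not a measured binding site. The sequences below are the 160 bases before the start of the window, in lower case with ISRE core and GAS matches in capitals. For Ifit3 that start, and the stretch printed, lie within the gene as annotated (chr19:34583119-34588982). They show the pair of separate ISRE cores of Ifit1 and Ifit3, the run of 3 overlapping cores of Isg15, the single core of Rsad2 and Gbp2, and the GTPases Gbp7 and Igtp in which GAS and the ISRE core stand close together.
Ifit1 (chr19:34640729-34640888, plus strand): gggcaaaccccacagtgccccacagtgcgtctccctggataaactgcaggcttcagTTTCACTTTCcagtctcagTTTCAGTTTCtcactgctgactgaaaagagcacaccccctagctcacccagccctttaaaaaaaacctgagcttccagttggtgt
Ifit3 (chr19:34583369-34583528, plus strand): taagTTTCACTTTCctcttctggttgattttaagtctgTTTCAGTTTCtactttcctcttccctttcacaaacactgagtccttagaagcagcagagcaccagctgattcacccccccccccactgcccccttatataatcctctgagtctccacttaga
Isg15 (chr4:156200819-156200978, minus strand): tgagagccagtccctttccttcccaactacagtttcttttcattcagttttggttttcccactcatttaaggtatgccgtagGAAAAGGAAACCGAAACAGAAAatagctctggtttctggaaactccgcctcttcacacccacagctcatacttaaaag
Rsad2 (chr12:26456453-26456612, minus strand): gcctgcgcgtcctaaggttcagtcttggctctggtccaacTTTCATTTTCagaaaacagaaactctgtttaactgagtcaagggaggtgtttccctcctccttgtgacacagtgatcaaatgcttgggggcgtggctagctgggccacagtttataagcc
Gbp2 (chr3:142620503-142620662, plus strand): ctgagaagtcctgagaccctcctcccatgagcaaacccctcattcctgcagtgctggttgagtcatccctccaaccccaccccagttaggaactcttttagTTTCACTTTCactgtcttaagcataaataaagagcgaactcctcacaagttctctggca
Gbp7 (chr3:142530176-142530335, plus strand): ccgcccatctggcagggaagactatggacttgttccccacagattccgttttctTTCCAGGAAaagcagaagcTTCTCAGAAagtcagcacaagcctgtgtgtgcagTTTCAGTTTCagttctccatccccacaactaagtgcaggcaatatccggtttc
Igtp (chr11:58199396-58199555, plus strand): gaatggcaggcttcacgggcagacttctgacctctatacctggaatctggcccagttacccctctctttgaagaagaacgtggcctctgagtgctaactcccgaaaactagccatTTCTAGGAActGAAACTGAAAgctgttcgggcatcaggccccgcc

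**Figure D1:**
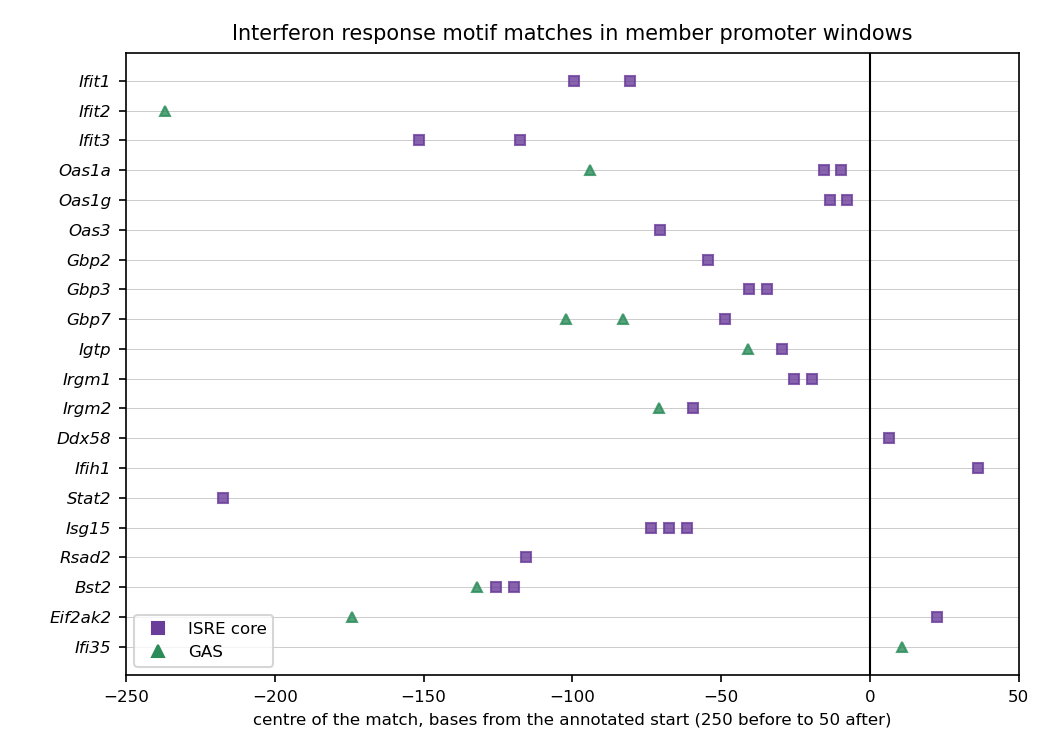
Centre of each ISRE core match (squares) and GAS match (triangles) in the promoter windows of the members that hold one, on an axis of bases from the annotated start. In the 6 GTPases with a window every match lies between 106 and 15 bases before the start, and in Ddx58, Ifih1, Eif2ak2 and Ifi35 a match lies after it.

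Many members of a family share a chromosome, though not always a place on it. In the same build Ifit1, Ifit2 and Ifit3 lie together on chromosome 19 (Ifit1 at chr19:34640889-34650009), the Oas and Oasl genes lie on chromosome 5 (Oas2 at chr5:120730333-120749886), and Mx1 and Mx2 lie on chromosome 16 (Mx2 at chr16:97536081-97560901). Gbp2, Gbp3 and Gbp7 lie on chromosome 3, and Irgm1, Irgm2 and Igtp on chromosome 11 (Igtp at chr11:58199556-58207592). Irgm1, at chr11:48865245-48871420, is far from Igtp and Irgm2, and Oasl1, at chr5:114923143-114937911, is far from Oas2. Ifi27l2a lies on chromosome 12 (chr12:103433873-103443680). Members of these families resemble each other, so reads can be shared or lost between them, and the values of Ifi27l2a, the Oas1 genes, Ifit3 and the Gbp genes are uncertain for that reason. The annotated ends of Parp9 (chr16:35938470-35972621) and Dtx3l (chr16:35926515-35939027) overlap.

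Total counts per library were between 5580961 and 9497088, and levels below are CPM, the count scaled to a common library total, with that total adjusted by TMM within each time. On this scale 3 counts, taken as the floor of detection, equal 0.311 to 0.613 CPM. Libraries are given in the order of replicates 1, 2 and 3. Stag2 had 120.3, 108 and 154 CPM in WT and 76.2, 61.1 and 69.3 CPM in KO at 1 week, and 59.2, 61.9 and 46.4 CPM in WT and 38.0, 36.4 and 19.3 CPM in KO at 1 month, so each KO library was below every WT library of its time. Of all genes tested, 12.5% at 1 week and 7.58% at 1 month were so placed. With edgeR's quasi-likelihood test Stag2 was called at neither time. Its log2 fold change was -0.89 (SE 0.27, adjusted p 0.198) at 1 week and -0.88 (SE 0.22, adjusted p 0.0507) at 1 month. The deleted exons are not given in the sources used here, and 3' reads outside them would not check the deletion. Xist, a transcript of the inactive X chromosome, had 1 to 13 counts in WT and 6392 to 10406 in KO at 1 week. At 1 month only KO replicate 3 had it, with 7764 counts against 2 to 28 in the others. Genotype and sex thus cannot be told apart at 1 week, nor between the replicates 3 at 1 month. All libraries of 1 week are of sequencing batch 1, replicates 1 and 2 of both genotypes at 1 month of batch 2 and replicates 3 of batch 3, so time and batch cannot be told apart either. Each difference within batch 3 given below therefore joins genotype with sex. KO replicate 3 at 1 week stood apart: it was the highest or the lowest of its time for 34.3% and 38.6% of the 12754 genes tested. Each result of 1 week is therefore also given without it where it matters.

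Of the 40 members, 37 had a count in every library and 30 had over 3 counts in each. The filter on low counts was passed by 37 at 1 week, 34 at 1 month and 38 in the joint fit of all libraries. Not tested at 1 week were Oas1a, Oas1g and Oas3, with 0 to 10 counts per library. At 1 month these and Oasl1, Mx1 and Irgm2 were not tested, with at most 17 counts in Oas3, 8 in Oasl1, 8 in Mx1 and 36 in Irgm2.

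At 1 week the interferon-stimulated genes were mostly higher in KO, and no single one passed the test. Of 37 members tested, 31 had a positive log2 fold change and the median was 0.47, against 51.5% positive and a median of 0.02 over all genes. With edgeR's quasi-likelihood test and an adjusted p of 0.05 as threshold, 0 members were called, beside 0.0627% of all genes, and 9 (24.3%) had an unadjusted p under 0.05, 8 of them higher in KO, where 15.5% of all genes had such a p. DESeq2 called 2 of 37 (5.41%), Oasl1 (adjusted p 0.0492) and Ifi27l2a (adjusted p 0.0497), below its 7.52% of all genes. In 8 members every KO library was above every WT library, where 14.1% of all genes were so placed, and in 1 member every KO library was below, against 12.5%. The 8 were Oas2, Oasl1, Mx2, Ddx58, Irf9, Rsad2, Xaf1 and Ifi27l2a, and the 1 was Bst2. Without KO replicate 3 the counts were 16 above, against 20.8% of all genes, and 1 below, against 16.9%.

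The excess at 1 week leaned on KO replicate 2. That library had the highest level of its time for 15 of 37 members (40.5%), where it was the highest for 18.1% of all genes. Without it the median of the members was 0.15 and 23 of 37 were positive, and without KO replicate 3 the median was 0.43 and 31 were positive. The direction counts at 1 week were the same under TMM, under size factors as in DESeq2 and under library size.

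**Figure D2:**
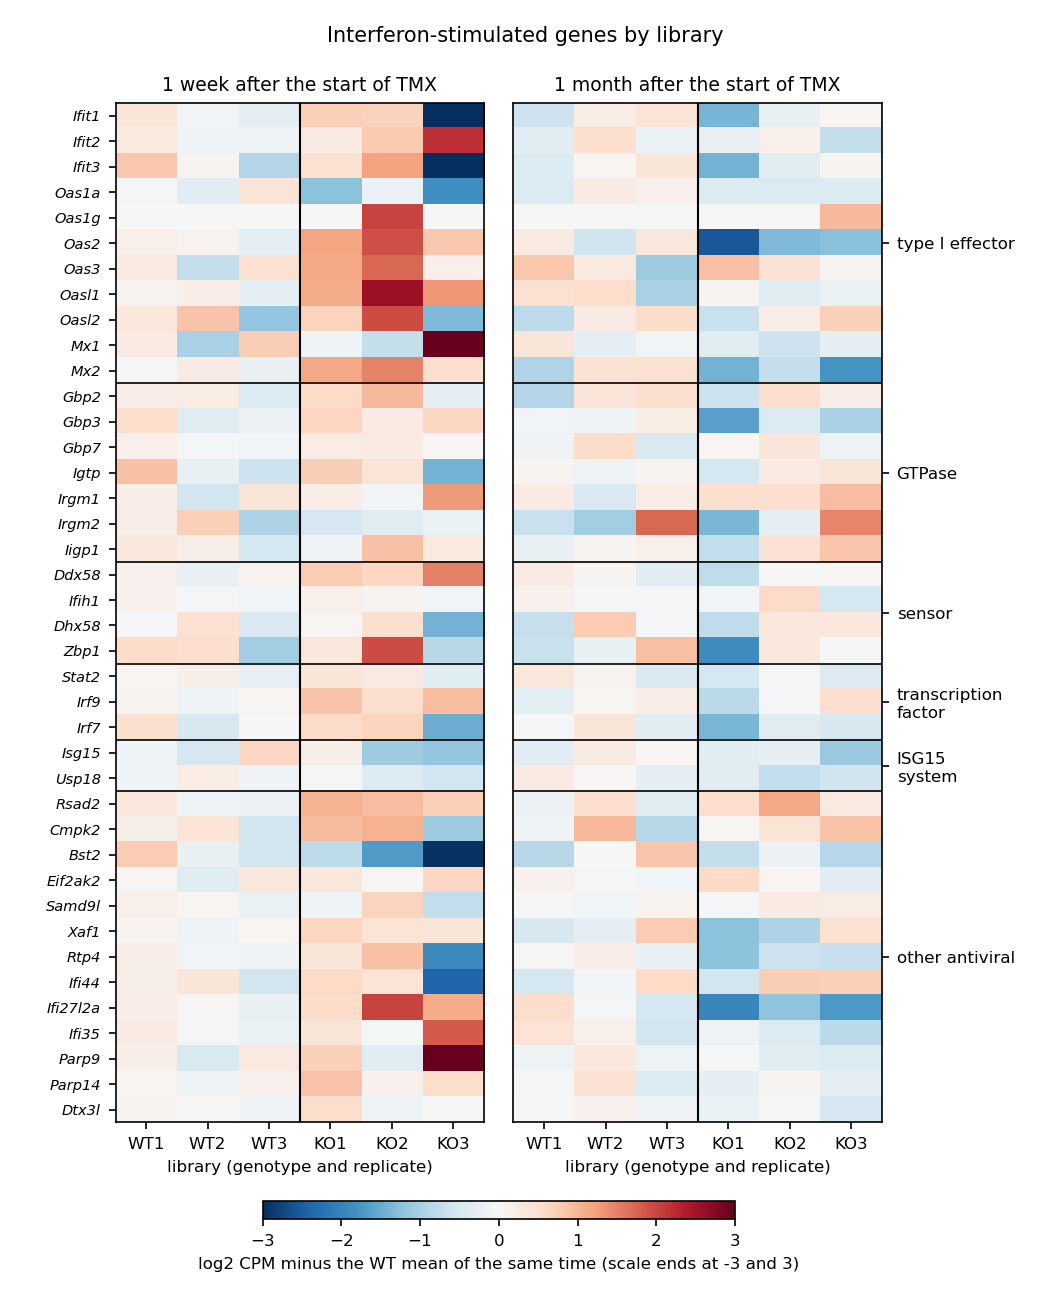
Log2 CPM of each of the 40 members minus the WT mean of the same time, by library, with members grouped by role. Red is above and blue below the WT mean, and the colour scale ends at -3 and 3. At 1 week KO2 is red in most rows while KO3 holds both the darkest blue (Ifit1, Ifit3, Bst2) and the darkest red (Mx1, Parp9). At 1 month KO1 is blue in most rows.

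The type I effectors had the higher median at 1 week, 1.29 over the 8 tested, all of them positive. Without KO replicate 2 the count was 5 of 8 and the median 1.03, without KO replicate 3 it was 7 of 8 and 0.98, and without WT replicate 3 it was 6 of 8 and 1.15. The filter on low counts lets a gene pass through the genotype where it is high, and Oasl1 passed through KO alone. Oas2, Mx1 and Mx2 would also have failed it on their WT libraries and passed on their KO libraries. WT replicate 3 was too low in Oas2 and Mx2, and WT replicate 2 in Mx1. Of the effectors left out, all with few counts, Oas1a was below the WT mean in each KO library and Oas3 above it. The sign count and the median are thus partly set by the filter. Oasl1, a relative of the oligoadenylate synthetases that lacks their enzyme activity, had 0.729, 0.817 and 0.518 CPM in WT and 1.76, 5.30 and 2.04 CPM in KO. All 3 KO libraries were above the WT libraries, replicate 2 by the most, and the log2 fold change was 2.14 (SE 0.63, adjusted p 0.185, 0.0492 to 0.560 over the alternatives). Oas2, a synthetase that makes the signal for RNA breakdown by RNase L, had 1.34, 1.28 and 0.933 CPM in WT and 2.97, 5.19 and 2.25 CPM in KO. The groups did not overlap, and the log2 fold change was 1.56 (SE 0.52, adjusted p 0.224). Mx2, a dynamin-like GTPase that blocks virus replication, had 1.22, 1.52 and 1.04 CPM in WT and 3.11, 3.98 and 1.84 CPM in KO, again without overlap. Its log2 fold change was 1.25 (SE 0.50, adjusted p 0.297).

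In the other type I effectors KO replicate 3 went apart from its group, and in both directions. Ifit1, which binds foreign RNA caps, had 10.1, 7.35 and 6.43 CPM in WT and 12.97, 12.8 and 0.613 CPM in KO, the last from 3 counts. Ifit3 had 15.4, 9.22 and 4.66 CPM in WT and 12.2, 20.7 and 0.204 CPM in KO, the last from 1 count. Ifit2, from the same cluster of genes, had 7.17, 5.25 and 5.18 CPM in WT and 6.89, 10.2 and 27.6 CPM in KO. The library that was lowest for Ifit1 and Ifit3, whose promoters both hold the pair of ISRE cores printed above, was thus the highest for Ifit2. Mx1 had 3.04, 1.17 and 4.35 CPM in WT and 2.30, 1.44 and 21.9 CPM in KO. The log2 fold change was 1.33 for Ifit2 (SE 0.57, adjusted p 0.319) and 1.54 for Mx1 (SE 1.06, adjusted p 0.504), and without KO replicate 3 it was 0.50 for Ifit2 and -0.68 for Mx1. Across the tested members, 18 of 37 (48.6%) in this library differed by over 1 on the log2 scale from the mean of the other KO libraries, close to the 46.7% of all genes. Between KO replicates 1 and 2 the shares were 16.2% of members and 17.6% of all genes.

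The GTPases of the Gbp and Irg families, which attack the membranes of vacuoles that hold microbes, had a smaller median of 0.38 at 1 week, with 6 of 7 positive, 0 called by edgeR or DESeq2 and 0 at an unadjusted p under 0.05. Their groups overlapped in all 7 genes. Gbp2 had 14.1, 14.2 and 9.12 CPM in WT and 18.2, 24.1 and 10.02 CPM in KO, a KO minus WT log2 value of 0.49 (SE 0.41, adjusted p 0.585). Gbp3 differed by 0.48 (SE 0.40, adjusted p 0.578) and Iigp1 by 0.38 (SE 0.38, adjusted p 0.636). Gbp7, whose promoter holds a pair of GAS matches, had 40.6, 35.02 and 34.4 CPM in WT and 42.4, 43.2 and 37.6 CPM in KO. Irgm1, which steers the other Irg proteins, had 5.83, 3.39 and 6.53 CPM in WT and 5.81, 4.75 and 12.7 CPM in KO. The single high library was replicate 3, and the log2 fold change of 0.55 (SE 0.51, adjusted p 0.620) was -0.04 without it. Irgm2 was the one GTPase with a negative value, -0.52 (SE 0.52, adjusted p 0.637).

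Among the sensors and transcription factors at 1 week, Ddx58 and Irf9 were higher in each KO library. Ddx58, which codes for the RNA sensor RIG-I, had 52.3, 40.7 and 51.2 CPM in WT and 81.5, 73.3 and 137 CPM in KO. The groups did not overlap, and the log2 fold change was 1.01 (SE 0.33, adjusted p 0.217) with all libraries and 0.64 without KO replicate 3. Irf9, the DNA-binding partner of Stat2, had 44.7, 38.8 and 44.0 CPM in WT and 76.3, 61.1 and 80.5 CPM in KO, a log2 difference of 0.77 (SE 0.26, adjusted p 0.228). Its partner Stat2 overlapped between the groups, with 22.2 to 29.7 CPM in WT and 20.4 to 34.0 CPM in KO. Ifih1, which codes for the related sensor MDA5, lay within 22.3 to 25.8 CPM in WT and 22.3 to 26.1 CPM in KO. Irf7, the factor that amplifies type I interferon production, had 12.8, 6.42 and 8.92 CPM in WT and 13.6, 14.6 and 3.07 CPM in KO, with replicate 3 the lowest of all 6.

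The Isg15 system did not share the positive sign at 1 week. Isg15, a ubiquitin-like protein joined to other proteins, had 23.2, 17.9 and 39.2 CPM in WT and 28.8, 12.04 and 11.2 CPM in KO. Usp18, which removes Isg15 and damps the type I receptor, had 15.7, 19.8 and 15.9 CPM in WT and 16.6, 12.8 and 11.4 CPM in KO. Both overlapped between the genotypes.

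Of the 13 other antiviral genes, 11 were positive at 1 week and 0 were called by edgeR. DESeq2 called 1 (7.69%), Ifi27l2a, near its 7.52% of all genes. Ifi27l2a, a small membrane protein of mitochondria, had 30.1, 26.9 and 22.4 CPM in WT and 38.8, 108 and 57.0 CPM in KO. Every KO library was above every WT library, and the log2 fold change was 1.36 (SE 0.42, adjusted p 0.198, 0.0497 to 0.581 over the alternatives). Without KO replicate 2 it was 0.82. Rsad2, which codes for viperin and blocks virus assembly, had 20.1, 14.2 and 14.2 CPM in WT and 33.1, 30.7 and 26.4 CPM in KO, a genotype difference on the log2 scale of 0.90 (SE 0.30, adjusted p 0.225). Its KO libraries lay close together, at 30.1 ± 3.41 CPM (SD, n = 3). Xaf1, a promoter of cell death, had 16.7, 14.4 and 16.4 CPM in WT and 24.6, 21.0 and 20.2 CPM in KO.

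Bst2 went the other way at 1 week. Bst2 codes for tetherin, which holds budding viruses on the cell surface, and had 13.98, 7.004 and 5.49 CPM in WT and 4.59, 2.32 and 0.818 CPM in KO. Each KO library was below every WT library, and the log2 fold change was -1.74 (SE 0.67, adjusted p 0.282). Parp9 had 38.8, 25.1 and 42.4 CPM in WT and 57.3, 27.8 and 284 CPM in KO, and its partner Dtx3l, a ubiquitin ligase, had 80.1, 77.5 and 68.1 CPM in WT and 109, 67.1 and 76.3 CPM in KO. The high level of Parp9 was in replicate 3 alone, where Dtx3l lay within the range of the other libraries. The log2 fold change of Parp9 was 1.79 (SE 0.81, adjusted p 0.344) and 0.20 without that library. Ifi35, with 29.0, 21.3 and 80.3 CPM in KO against 19.6 to 26.7 CPM in WT, differed by 0.94 (SE 0.52, adjusted p 0.417), and by 0.11 without it. Parp14 differed by 0.53 (SE 0.29, adjusted p 0.418).

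At 1 month the members were mostly lower in KO, and 1 fell past the threshold. Of 34 tested, 23 had a negative log2 fold change and the median was -0.26, against a median of -0.01 over all genes. The member that fell was Ifi27l2a, 1 of 34, beside 1.22% of the 12139 genes called lower. No member was called higher by edgeR or DESeq2, beside 0.997% of all genes. Of 9 members (26.5%) with an unadjusted p under 0.05, 8 were lower and 1, Rsad2, was higher, and 21.5% of all genes had such a p. All KO libraries were below all WT libraries in 6 members, where 7.58% of all genes were so placed, and above in 1 member, against 5.72%. The 6 were Oas2, Gbp3, Irf7, Usp18, Rtp4 and Ifi27l2a, and the 1 was Irgm1.

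The share of negative members at 1 month depended on 1 library and on the scaling. KO replicate 1 had the lowest level of its time for 16 of 34 members (47.1%), where it was the lowest for 12.2% of all genes. Without it 18 of 35 members tested were negative, with a median of -0.05. With library totals in place of TMM the median of all genes moved from -0.01 to 0.22, and 18 of 34 members were negative with a median of -0.04, so relative to all genes the members lay lower under both. The split of all called genes moved with the scaling too, from 121 higher and 148 lower to 456 higher and 105 lower. With no batch covariate 0 members and 0 genes were called, with 919 genes at an unadjusted p under 0.05.

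**Figure D3:**
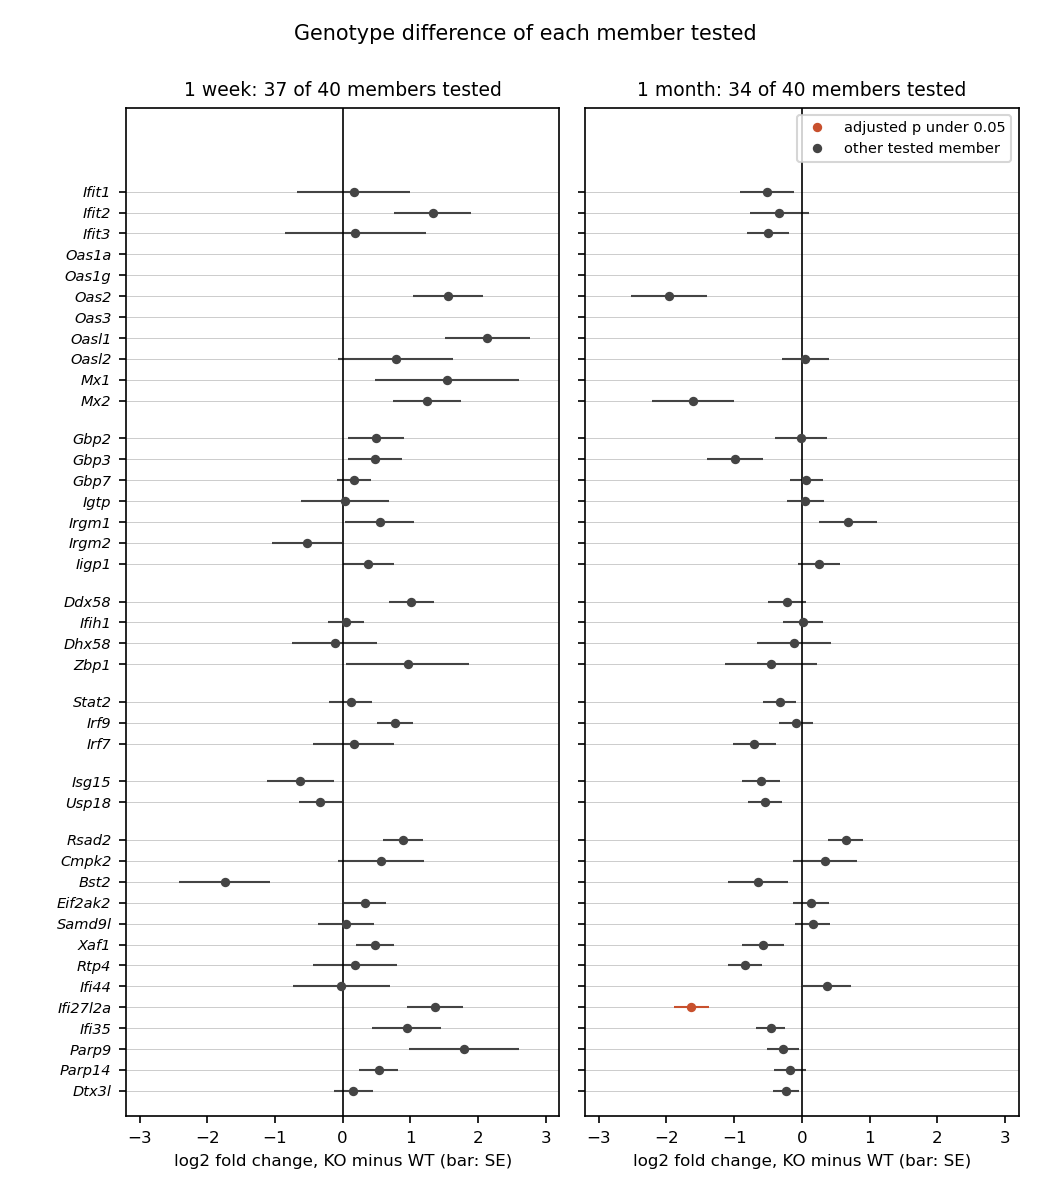
Log2 fold change of KO minus WT for each member tested at 1 week (left, 37 members) and at 1 month (right, 34 members), with bars of 1 standard error. The red point is Ifi27l2a at 1 month, and the 8 type I effectors at 1 week all lie to the right of 0.

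Ifi27l2a had 166, 112 and 80.3 CPM in WT and 29.3, 49.2 and 34.2 CPM in KO at 1 month. All 3 KO libraries were below all WT libraries, and the group means were 119.6 ± 43.3 and 37.6 ± 10.4 CPM (SD, n = 3). The log2 fold change was -1.63 (SE 0.26, adjusted p 0.0102). Within batch 2 the difference of log2 CPM was -1.84. Within batch 3, with 1 library of each genotype of which only KO had Xist, it was -1.22. Its call was lost without the batch covariate, at an adjusted p of 0.242 (range over the alternatives 4.9e-09 to 0.242), and without KO replicate 1, where the log2 fold change was -1.34 and no member was called.

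The type I effectors at 1 month had a median of -0.51, with 5 of 6 negative and 0 called by edgeR. The filter bears on these values too, since Oas2 passed it through WT alone. Oas2 had 4.52, 2.34 and 4.74 CPM in WT and 0.370, 1.28 and 1.37 CPM in KO. Its groups did not overlap, and the log2 fold change was -1.97 (SE 0.56, adjusted p 0.0805), and its batches 2 and 3 gave -1.78 and -1.59. Mx2 had 1.38, 3.96 and 3.98 CPM in WT and 0.863, 1.60 and 0.609 CPM in KO. Here WT replicate 1 lay within the KO range, and the log2 fold change was -1.61 (SE 0.60, adjusted p 0.151). The 3 Ifit genes were lower by less. Ifit1 had 5.12, 9.36 and 10.7 CPM in WT and 2.84, 6.87 and 8.37 CPM in KO, a KO minus WT log2 value of -0.51 (SE 0.40, adjusted p 0.479). Ifit3 differed by -0.50 (SE 0.31, adjusted p 0.365) and Ifit2 by -0.33 (SE 0.44, adjusted p 0.686). Without KO replicate 1 the values of Ifit1 and Ifit3 were -0.15 and -0.16. Oasl2 was the type I effector with a positive value, with 5.71, 12.1 and 15.0 CPM in WT and 6.29, 11.5 and 16.9 CPM in KO.

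The GTPases at 1 month were split, with 4 of 6 positive, a median of 0.06 and 0 called by edgeR or DESeq2. With library totals 5 of 6 were positive, with a median of 0.29, beside the shift of all genes to 0.22. Gbp3 had 6.69, 6.48 and 8.41 CPM in WT and 2.10, 5.27 and 3.5 CPM in KO, below WT in each library. Its log2 fold change was -0.99 (SE 0.41, adjusted p 0.191). Irgm1 had 3.15, 1.80 and 3.06 CPM in WT and 3.82, 3.83 and 5.17 CPM in KO, above WT in each library. Its log2 fold change was 0.68 (SE 0.43, adjusted p 0.382), and its batches 2 and 3 gave 0.61 and 0.70. The chromosome 3 neighbours of Gbp3 did not share its difference: Gbp2 had 5.90, 14.6 and 15.9 CPM in WT and 7.03, 15.8 and 12.9 CPM in KO. Gbp7 differed by 0.07 (SE 0.24, adjusted p 0.898), Igtp by 0.05 (SE 0.27, adjusted p 0.932) and Iigp1 by 0.25 (SE 0.31, adjusted p 0.666). Each of these 3 was negative without one or another library, so they had no settled direction.

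Of the remaining members at 1 month, Rtp4, Irf7 and Usp18 were below WT in each KO library. Rtp4, a chaperone of membrane receptors, had 31.3, 34.7 and 25.9 CPM in WT and 12.8, 19.8 and 18.6 CPM in KO, a log2 difference of -0.84 (SE 0.26, adjusted p 0.0942). In batch 2 alone it was called, as was Ifi27l2a, beside 1474 of the 12103 genes tested there. Irf7 had 19.7, 26.3 and 16.4 CPM in WT and 7.64, 16.1 and 14.5 CPM in KO, a genotype difference on the log2 scale of -0.70 (SE 0.32, adjusted p 0.226), and its batches 2 and 3 gave -1.01 and -0.18. Usp18 had 25.6, 22.1 and 17.9 CPM in WT and 17.4, 12.9 and 14.2 CPM in KO, a KO minus WT log2 value of -0.55 (SE 0.25, adjusted p 0.227). Its substrate Isg15 differed by -0.60 (SE 0.28, adjusted p 0.235), and here the value was -0.31 in batch 2 alone, where the KO libraries had 17.1 and 17.6 CPM. Xaf1 differed by -0.58 (SE 0.31, adjusted p 0.300) and Ifi35 by -0.46 (SE 0.21, adjusted p 0.224).

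Rsad2 was higher in KO at both times. At 1 month it had 22.03, 35.3 and 19.7 CPM in WT and 35.4, 56.2 and 29.8 CPM in KO. The groups overlapped, and the log2 fold change was 0.65 (SE 0.26, adjusted p 0.178), and its batches 2 and 3 gave 0.67 and 0.59. Cmpk2, a mitochondrial nucleotide kinase whose gene lies next to Rsad2 on chromosome 12, had 5.51, 12.4 and 3.21 CPM in WT and 6.29, 8.15 and 11.3 CPM in KO. Sensors overlapped in all 4 genes at 1 month: Ddx58, higher at 1 week, had 35.4, 31.9 and 23.6 CPM in WT and 17.4, 29.9 and 30.7 CPM in KO. Of the 34 members, 22 had the same sign in both batches (64.7%), 17 of them lower, where 58.6% of all genes did. In batch 3 the sign joins genotype with sex.

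The type I effectors were set against the GTPases within each library, as the mean log2 CPM of the 11 effectors minus that of the 7 GTPases, with no test. At 1 week this difference was -2.71, -2.63 and -2.37 in WT and -2.33, -1.67 and -2.87 in KO, so KO replicate 2 was highest, KO replicate 3 lowest and the groups overlapped. The mean difference between genotypes was 0.28, and without KO replicate 2 it was -0.03. At 1 month the values were -1.75, -1.58 and -2.20 in WT and -1.90, -2.33 and -2.47 in KO. WT replicate 3 lay within the KO range, and the mean difference was -0.39, with -0.26 to -0.57 when a library was left out. Taken apart at 1 month, the mean log2 CPM of type I effectors was 1.205, 1.49 and 1.34 in WT and 0.67, 1.05 and 1.10 in KO. These did not overlap, while the GTPases had 2.95, 3.08 and 3.54 in WT and 2.57, 3.38 and 3.57 in KO. Both means depend on TMM, whose factors were 0.86, 0.94 and 0.99 in WT and 0.98, 1.12 and 1.15 in KO. With library totals the median log2 fold change of the tested effectors moved from -0.51 to -0.27. The placement of the means with library totals is not given here. The levels of the families are not compared with each other here, only their difference between libraries. The means include genes too low to be tested, such as Oas1a, Oas1g and Oas3. At 1 week Oas1g was above the WT mean in KO replicate 2 alone, by 2.03 on the log2 scale.

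**Figure D4:**
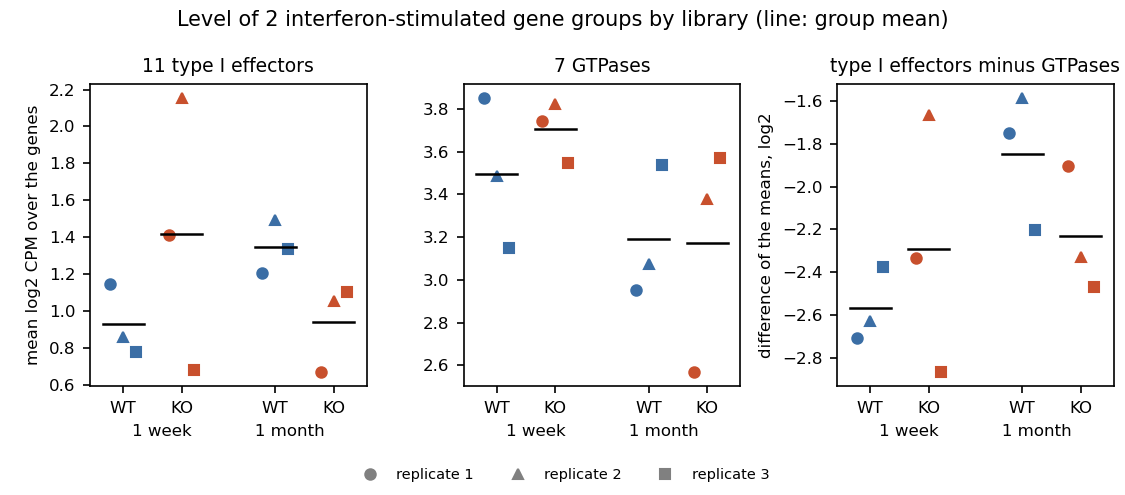
Mean log2 CPM of the type I effectors (left) and the GTPases (middle) and the difference of both (right) in each library, with WT in blue, KO in red and lines at group means. Under TMM scaling, the KO libraries of 1 month lie below the WT libraries in the left panel and overlap them in the middle panel.

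The change of the genotype difference from 1 week to 1 month was tested as an interaction in all 12 libraries. Of 38 members tested 0 were called, beside 0% of all 13122 genes, and 11 members (28.9%) had an unadjusted p under 0.05, all with a lower effect at 1 month, where 19.9% of all genes had such a p. The median of the members was -0.67, against -0.04 for all genes, and -0.28 without KO replicate 2 of 1 week. That of the 9 type I effectors tested was -1.65, all 9 negative under each of 3 scalings. Without KO replicate 2 of 1 week 7 of the 9 were negative, and without KO replicate 3 of 1 week 8 were. The filter bears on this count too: Oas3 was tested at neither time alone, and Oasl1 and Mx1 were not tested at 1 month. For the 7 GTPases the median was -0.08, and with library totals it was 0.17. The 2 values with the smallest p were Ifi27l2a, at -2.99 (SE 0.55, adjusted p 0.0879), and Oas2, at -3.52 (SE 0.80, adjusted p 0.104). Mx2 followed at -2.85 (SE 0.82, adjusted p 0.128), and DESeq2 called these 3 of 38 members (7.89%), near its 7% of all genes, with Oas2 at an adjusted p of 0.00271 (0.00271 to 0.304 over the alternatives). Oas2 and Ifi27l2a were also the 2 of 34 members with every KO library above WT at 1 week and below WT at 1 month, where 1.09% of genes tested at both times were so placed. In Oas2, WT went from 0.933 to 1.34 CPM at 1 week to 2.34 to 4.74 CPM at 1 month, in libraries of different batches. The filter bears on Oas2 at both times, since its KO libraries carried it at 1 week and its WT libraries at 1 month. Of the 8 other members with an unadjusted p under 0.05, Xaf1 was at -1.04 (SE 0.38, adjusted p 0.182), Ddx58 at -1.22 (SE 0.47, adjusted p 0.196), Gbp3 at -1.45 (SE 0.58, adjusted p 0.205), Oasl1 at -2.36 (SE 0.94, adjusted p 0.206) and Parp9 at -2.06 (SE 0.92, adjusted p 0.240). The last 3 were Ifi35 at -1.39 (SE 0.59, adjusted p 0.228), Ifit2 at -1.65 (SE 0.73, adjusted p 0.238) and Irf9 at -0.84 (SE 0.38, adjusted p 0.244). Parp9 was -0.52 without KO replicate 3 of 1 week. Batch 1 is time 1 week, so this test joins the change of time with a change of batch. The change cannot be told apart from sex either. Xist parted KO from WT in all libraries at 1 week, while at 1 month only KO replicate 3 had it. The interaction of Xist itself was -6.56 (SE 2.48).

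The rest of the pathway was examined through lists of 89 genes, of which edgeR tested 53 at 1 week and 50 at 1 month and called 0 at either time, with 7 (13.2%) and 9 (18%) at an unadjusted p under 0.05. DESeq2 called 2 at 1 week, Ifitm1 and Lgals3bp, or 3.77% against 7.52% of all genes, and 3 at 1 month, Irf1, Ifitm3 and Ly6e, or 6.52% against 6.98%. Interferons themselves were hardly seen: of 21 ligand genes, among them Ifnb1, the Ifna genes, Ifng and the lambda genes, 0 passed the filter. The highest count of any of them was 7, for Ifne in KO replicate 3 at 1 week, and Ifng had 1 count in 1 library, so the floor of 3 counts per library is the limit of what these depths can show. Of the 6 receptor genes 6 were tested at both times and 0 were called. Jak2, the kinase of the interferon gamma receptor, had 12.2, 13.5 and 20.3 CPM in WT and 20.2, 22.2 and 29.7 CPM in KO at 1 month, a log2 difference of 0.66 (SE 0.24, adjusted p 0.135).

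Irf1 was the pathway gene nearest to the threshold. Irf1, a factor that interferon gamma induces strongly and that binds ISRE-like sites, had 7.28, 11.5 and 26.6 CPM in WT and 15.8, 23.3 and 58.7 CPM in KO at 1 month. Within each batch KO was above WT, while the libraries of batch 3 were the highest of their genotype. The log2 fold change was 1.08 (SE 0.27, adjusted p 0.0518), and DESeq2 called it (adjusted p 0.0127, 0.00152 to 0.681 over the alternatives). At 1 week it had 37.1, 29.5 and 17.6 CPM in WT and 23.1, 30.4 and 37.8 CPM in KO. Nlrc5, the activator of class I antigen presentation genes, had 15.9, 13.5 and 13.3 CPM in WT and 6.53, 7.99 and 7.91 CPM in KO at 1 month. The groups did not overlap, and the log2 fold change was -0.93 (SE 0.29, adjusted p 0.0968). Other genes of the Gbp and Irg families, 6 tested of 10 at each time, had medians of 0.56 at 1 week and 0.02 at 1 month. Of 7 other targets of interferon gamma, 4 were tested at each time: at 1 week all 4 were lower, with a median of -0.58, and at 1 month 2 were higher and 2 lower. Cd274, which codes for the checkpoint ligand PD-L1, had 5.35, 4.79 and 6.95 CPM in WT and 2.70, 2.76 and 1.43 CPM in KO at 1 week. Every KO library was below WT, at -1.29 on the log2 scale (SE 0.45, adjusted p 0.244).

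Of 20 further interferon-induced genes, 16 were tested at each time, with 13 positive at 1 week and 12 negative at 1 month. Ifitm1, which keeps viruses from fusing with membranes, had 59.7, 51.0 and 41.1 CPM in WT and 119, 216 and 274 CPM in KO at 1 week, a KO minus WT log2 value of 2.00 (SE 0.38, adjusted p 0.107). Its relative Ifitm3 had 366, 363 and 352 CPM in WT and 464, 742 and 1005 CPM in KO at 1 week. At 1 month Ifitm3 had 1302, 1124 and 629.5 CPM in WT and 528, 643 and 530.5 CPM in KO, a log2 difference of -0.79 (SE 0.25, adjusted p 0.102). Ifitm3 was thus another gene with KO above WT at 1 week, and at 1 month 1 KO library, replicate 2, lay above the lowest WT library. Lgals3bp, a secreted glycoprotein, had 118, 108 and 121 CPM in WT and 228, 246 and 338 CPM in KO at 1 week, a genotype difference on the log2 scale of 1.22 (SE 0.28, adjusted p 0.126).

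Markers of other cell types were set beside these genes. Of 22 leukocyte markers 15 were tested at 1 week, 11 positive and 0 called by edgeR (DESeq2 called C1qa and Csf1r), and 14 at 1 month, 12 negative and 4 called lower, which were Csf1r, C1qa, C1qb and Cd74. Their summed level was 281 to 422 CPM in WT and 383 to 686 CPM in KO at 1 week, where the groups overlapped. At 1 month it was 1071 to 1523 CPM in WT and 427 to 684 CPM in KO, without overlap. C1qa, a complement gene of macrophages, had 44.8, 21.8 and 26.8 CPM in WT and 75.6, 87.9 and 219 CPM in KO at 1 week, and 362, 199.97 and 97.6 CPM in WT and 48.2, 60.4 and 46.4 CPM in KO at 1 month. Ifi27l2a and Oas2 had the same placement as C1qa at both times, with every KO library above WT at 1 week and below it at 1 month. Csf1r, C1qb and Itgax were so placed too. Others were not: Cd74 and Lyz2 overlapped at 1 week, and Nkg7 was below WT there. At 1 week 5 of 15 leukocyte markers lay above WT in every KO library, against 14.1% of all genes, and 1 below, against 12.5%. At 1 month 0 of 14 lay above, against 5.72%, and 7 below, against 7.58%. The part of leukocytes in the results of the members was not tested. Fewer cells of a type and less RNA per cell cannot be told apart in these bulk libraries. The B cell markers Cd79a and Ms4a1 had at most 5 counts per library. Endothelial markers were also higher in KO at 1 week, at 265 to 518 CPM summed over 5 genes against 159 to 179.5 CPM in WT, and fibroblast markers were at 4564 to 9985 CPM against 3405 to 5576 CPM. Smooth muscle markers were at 348 to 1049 CPM in KO against 109 to 274 CPM in WT at 1 week, without overlap. At 1 month the endothelial sum was 183 to 328 CPM in KO against 149 to 174 CPM in WT. The fibroblast sum was 7634 to 9375 CPM against 9680 to 13387 CPM, both without overlap, and smooth muscle markers overlapped. Single genes went both ways: 4 of 7 fibroblast markers were lower and 3 higher, and 3 of 5 endothelial markers were higher and 2 lower. No fibroblast marker had every KO library below WT. Pdgfrb was called higher, at 1.30 (SE 0.24, adjusted p 0.0218), beside 0.997% of all genes. The part of these cell types was not tested either. All 17 urothelial markers had a count in every library, and their sum at 1 month was 20414 to 35032 CPM in WT and 14946 to 20338 CPM in KO, without overlap. Of the 17, 13 were lower and 4 higher at 1 month. Krt20 was called lower, at -1.76 (SE 0.25, adjusted p 0.00601), beside 1.22% of all genes. Krt5 was above WT in each KO library, at 1.44 (SE 0.34, adjusted p 0.0505).

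**Figure D5:**
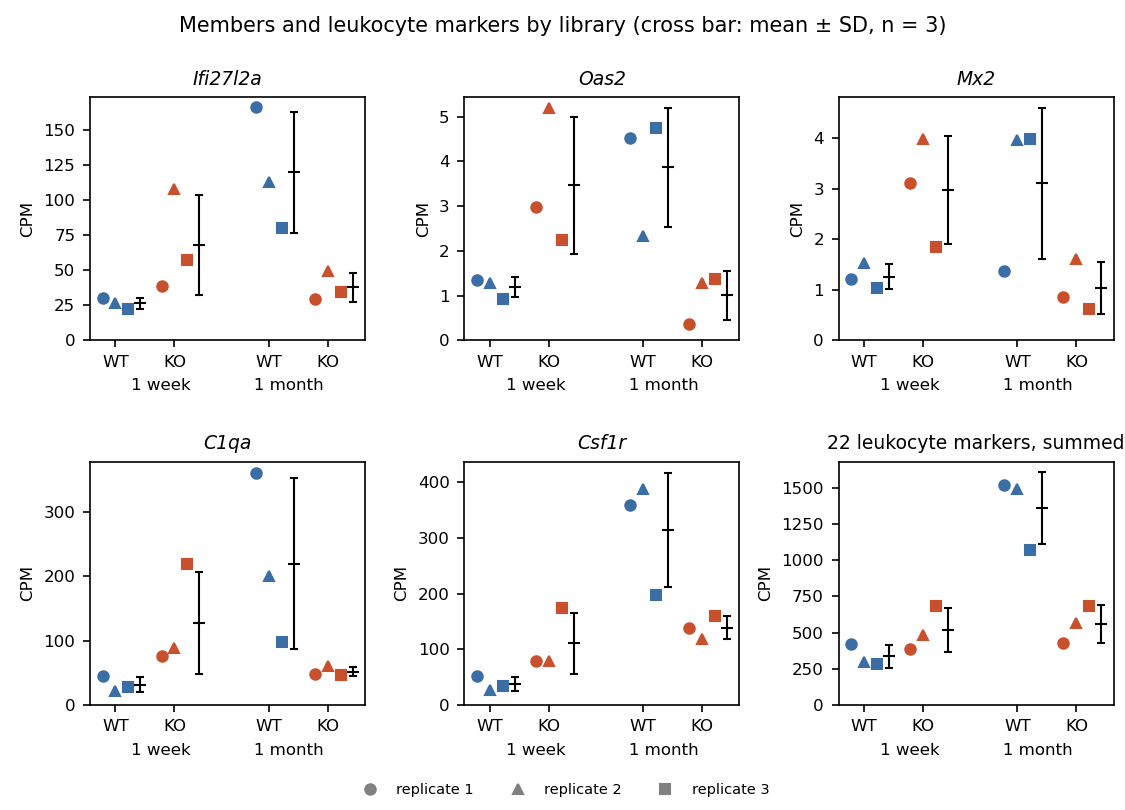
CPM by library of Ifi27l2a, Oas2 and Mx2 (top) and of C1qa, Csf1r and the sum of 22 leukocyte markers (bottom), with WT in blue, KO in red, symbols for replicates and bars at mean ± SD (n = 3). In Ifi27l2a, Oas2, C1qa and Csf1r the KO libraries lie above the WT libraries at 1 week and below them at 1 month. The sum of the leukocyte markers overlaps at 1 week.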

How the data were processed

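RNA from 12 libraries of mouse peeled urothelium, 3 in each of 4 groups, was sequenced from the 3' end with an oligo-dT primed, strand-aware kit, per the labels' protocols. The authors deposited raw counts per gene symbol in 1 table for each time. Bowtie, TopHat, HTSeq, DESeq2 and the build mm10 are named in the submitters' processing notes, without versions. Total counts per library were 5580961 to 9497088. Counts were tested with edgeR 4.0.16 in R 4.3.3 by the robust quasi-likelihood test, with TMM scaling, edgeR's own filter on low counts by group, and Benjamini-Hochberg adjustment over all genes tested at a threshold of 0.05. The fit of 1 week had 6 libraries and no covariate, that of 1 month 6 libraries with batch as covariate, and the interaction all 12 with batch. Log2 CPM used a prior count of 2. Alternatives were other scalings, DESeq2 1.42.0, other filters, dispersions that were not robust, no batch covariate, batch 2 alone and each library left out. The fits were tested on simulated data. The members and lists were chosen with earlier results of these data known. All 40 members could be named, with fold changes for those called and those of smallest p in each role, and for up to 2 genes of each pathway list at each time. The common biological coefficient of variation was 44.4% at 1 week, 24.2% at 1 month and 37.7% in the joint fit. A floor of 3 counts covers counting error only.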

Additional observations from a re-analysis of the deposited data

How the results depend on the processing

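At 1 week, DESeq2 called 2 members where edgeR called 0. With 1 library left out, the median log2 fold change at 1 week was 0.15 to 0.57 for all members and 0.0914 to 0.57 for the GTPases, and single values were -0.045 to 0.77 for Irgm1 and -0.68 to 2.03 for Mx1. At 1 month the count of members called, 1, was 3 with no filter on low counts, 0 with no batch covariate, 2 in batch 2 alone and 0 to 2 with 1 library left out. The median of the type I effectors at 1 month was -0.27 with library totals and -0.82 to -0.18 with 1 library left out. Gbp7 was -0.0443 and Igtp -0.0624 in batch 2 alone, and with 1 library left out Gbp7 was -0.0763 to 0.31, Igtp -0.16 to 0.32 and Iigp1 -0.055 to 0.63. In the interaction DESeq2 called 3 members, no filter 1 and leaving out 1 library 0 to 2. Over all genes, calls at 1 week were 8 in edgeR, 957 in DESeq2, 62 with no filter and 0 to 320 with 1 library left out, the most without KO replicate 3. Calls at 1 month were 269, against 561 with library totals, 781 in DESeq2, 1276 with no filter, 0 with no batch covariate, 1474 in batch 2 alone and 45 to 1522 with 1 library left out. In the interaction they were 0, against 917 in DESeq2, 137 with no filter and 0 to 440. The cause was not tested. Of the other values, 121 on the comparisons and 720 on single genes kept their direction and side of the threshold, while 28 on single genes came past it and 2 fell short of it. The filter on a mean count of 20 gave no value for the least abundant members, such as Oas2 and Mx2. No paired analysis was possible because the replicate numbers are accession order and pair no libraries.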
